A study of Mus musculus with 21 samples.

Results

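Genes for recognising and taking up apoptotic cells, 8 in all, were followed through 3 macrophage populations of the mouse kidney. They are the receptors *Axl*, *Mertk*, *Stab1*, *Timd4* and *Cd36* and the secreted bridging proteins *Gas6*, *Pros1* and *Mfge8*. They were taken by symbol from a count table with 34236 distinct symbols, all 8 were found, and each was a single row. Levels were given as CPM, counts relative to the library's scaled total, in 21 libraries.

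Macrophages were sorted from kidneys of male C57BL/6J mice aged 24 weeks after Sham surgery or after renal artery stenosis (RAS), in which a cuff narrows the artery of the right kidney and leaves it chronically ischemic. F4/80+CD64+ cells were split by their CD11b and CD11c into CD11b-high CD11c-high macrophages (CD11chiMϕ; 3 Sham and 4 RAS libraries), CD11b-high CD11c-low macrophages (CD11cloMϕ; 3 Sham and 4 RAS) and cells intermediate for both, the kidney-resident macrophages (KRM; 4 Sham and 3 RAS). No allele, transgene or drug was named for any group. The labels do not say which libraries came from the same or from separate mice, or whether mice were pooled, so the p-values measure the spread between libraries, which may be partly technical.

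Dying cells expose phosphatidylserine on their surface. Macrophages bind it directly, through receptors such as stabilin-1 (*Stab1*) and Tim-4 (*Timd4*), or through a soluble bridge. Gas6 and protein S (*Pros1*) link it to the receptor tyrosine kinases Axl, Mertk and Tyro3, while lactadherin (*Mfge8*) links it to integrins of the αv family, and Cd36 is a scavenger receptor for oxidised lipid and apoptotic cells. In bulk libraries of sorted cells, fewer cells carrying a transcript and less transcript per cell cannot be told apart.

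On GRCm38 (GENCODE), *Axl* lies at chr7:25757273-25788705 and *Mertk* at chr2:128698956-128802894. *Gas6* lies at chr8:13465374-13494490, *Pros1* at chr16:62854307-62929346 and *Mfge8* at chr7:79133768-79149060. *Stab1* lies at chr14:31139013-31168641, *Timd4* at chr11:46810800-46844332 and *Cd36* at chr5:17781690-17888801. *Gas6* overlaps *Tmem255b* on the opposite strand and *Mertk* overlaps *Gm14011* and *Gm23172*, and with a kit that does not keep strand reads in such stretches cannot be told apart.

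Library totals ran from 6891177 to 18592427 counts. All 10 macrophage identity markers were counted in all libraries. Their sum was 9325 CPM in CD11chiMϕ Sham replicate 3 against 20050 and 21983 CPM in replicates 1 and 2. *Itgax*, which encodes CD11c, was at 8.59 to 57.8 CPM in CD11cloMϕ and at 120 CPM or more elsewhere. In Sham kidneys it overlapped between KRM and CD11chiMϕ. *Itgam*, which encodes CD11b, was at 240 to 335 CPM in KRM Sham. It was at 131 CPM in CD11chiMϕ Sham replicate 3 and 233 CPM in CD11chiMϕ RAS replicate 2. The other CD11chiMϕ libraries held 606.6 to 791.3 CPM. Markers of monocytes and of other cells were uneven. In Sham kidneys the 10 monocyte markers summed to 7291 to 17975 CPM in CD11cloMϕ, 695 to 3255 CPM in CD11chiMϕ and 581 to 859 CPM in KRM. The 8 neutrophil markers summed to 1258 to 2789 CPM in CD11cloMϕ, 72.0 to 260 CPM in CD11chiMϕ and 96.1 to 119 CPM in KRM. The 12 proximal tubule markers summed to 19492 CPM in CD11chiMϕ Sham replicate 3 against 509 and 561 CPM in replicates 1 and 2, to 6889 CPM in CD11cloMϕ Sham replicate 3 against 197 and 217 CPM, and to 3133 CPM in KRM Sham replicate 3 against 806 to 881 CPM. The 8 markers of distal nephron and collecting duct summed to 4962 and 3764 CPM in KRM RAS replicates 2 and 3, and to 133 CPM in KRM RAS replicate 1. The 2 deposited tables differ in what they hold for KRM RAS replicate 1. Over 8267 genes its centred values correlated at 0.0713 with its own column of the log2 table, whereas the other 20 columns reached 0.886 to 0.977. Its counts resembled KRM from Sham kidneys (mean correlation 0.938) more than the other KRM RAS libraries (0.813). Calls of the 8 genes that changed when one of these libraries was left out are named beside the result.

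**Figure D1:**
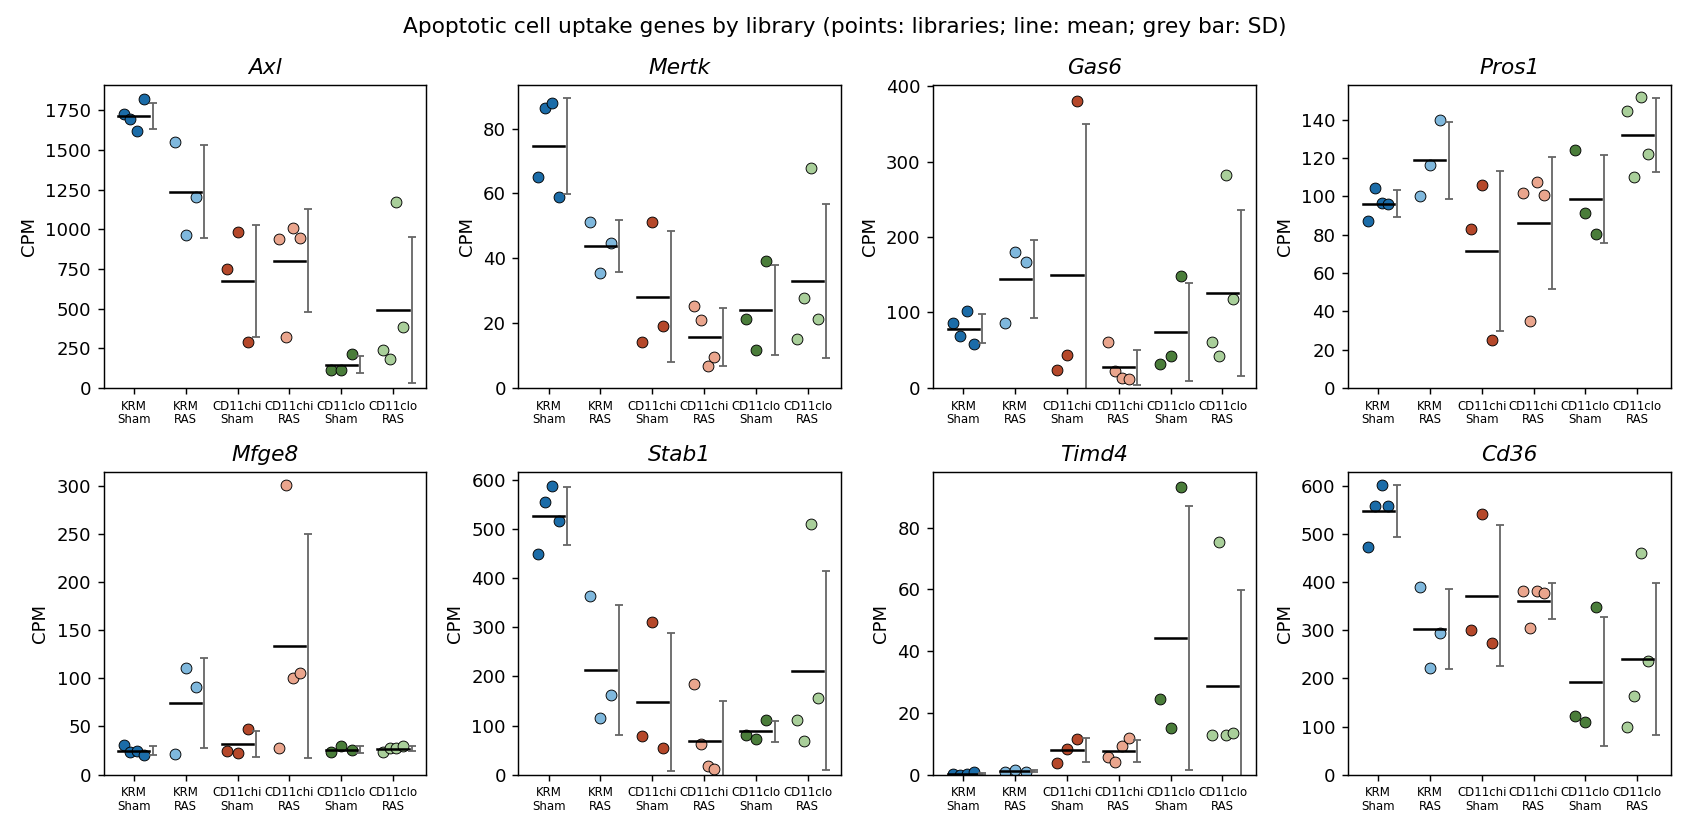
Level of each gene in CPM (vertical axes, each from 0) in the 6 groups (horizontal axes). Points are libraries, black lines group means and grey bars SD (axes end at 0, which some bars pass). *Axl*, *Mertk* and *Stab1* are at 1619 to 1820, 58.9 to 87.9 and 449 to 587 CPM in KRM from Sham kidneys, and *Timd4* is near 0 in KRM and reaches 93.4 CPM in CD11cloMϕ.

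*Axl*, a receptor tyrosine kinase whose ligand is Gas6, set KRM apart from CD11cloMϕ. It was at 1728, 1691, 1619 and 1820 CPM in the 4 KRM Sham libraries. The CD11chiMϕ Sham libraries held 749, 980.3 and 287 CPM. In CD11cloMϕ from Sham kidneys it was at 115, 114 and 212 CPM. The 3 populations did not overlap in Sham kidneys, with KRM highest and CD11cloMϕ lowest. Relative to CD11cloMϕ the log2 fold change in KRM was 3.55 with a standard error (SE) of 0.23 and an adjusted p of 1.45e-05 from edgeR's quasi-likelihood test with Benjamini-Hochberg adjustment over all genes tested, the test behind every adjusted p given here. KRM against CD11chiMϕ gave 1.34 (SE 0.39) on the log2 scale, which did not pass (adjusted p = 0.101). Without CD11chiMϕ Sham replicate 3, the lowest of its group and the library rich in tubule markers, this became 0.99 with an adjusted p of 0.00552. CD11chiMϕ against CD11cloMϕ gave 2.24 (SE 0.50, adjusted p = 0.0935), and 2.56 (adjusted p = 0.0141) without the same library.

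*Mertk*, the other receptor kinase of this family among the 8, was also highest in KRM of Sham kidneys. KRM Sham libraries held 65.1, 86.5, 87.9 and 58.9 CPM. CD11chiMϕ Sham libraries held 14.3, 51.2 and 19 CPM, and CD11cloMϕ Sham libraries 21.3, 11.7 and 39.1 CPM. All KRM Sham libraries lay above the libraries of both other populations, which overlapped each other. The log2 fold change was 1.65 (SE 0.35, adjusted p = 0.00657) against CD11cloMϕ and 1.39 (SE 0.45, adjusted p = 0.12) against CD11chiMϕ. Without CD11chiMϕ Sham replicate 2, the highest of its group, the second value was 2.16 with an adjusted p of 0.016, whereas it was 1.09 (adjusted p = 0.212) without replicate 1 and 1.19 (adjusted p = 0.12) without replicate 3. Set per length of annotated exon, *Axl* was 20.5 ± 5.08 times *Mertk* in KRM from Sham kidneys (SD, n = 4), 24.9 ± 17.7 times in CD11chiMϕ (SD, n = 3) and 5.93 ± 2.19 times in CD11cloMϕ (SD, n = 3). The third kinase of the family, *Tyro3*, was at 2.96 CPM or less in all 21 libraries and at 0 counts in the 3 CD11cloMϕ Sham libraries, where up to 3 counts per library remain possible.

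*Stab1*, a large scavenger receptor that also binds phosphatidylserine, followed the same pattern. Its 4 KRM Sham libraries held 449, 555, 587 and 516 CPM. CD11chiMϕ Sham libraries held 78.8, 310.3 and 54.5 CPM, and CD11cloMϕ Sham libraries 81.1, 71.9 and 112 CPM. KRM stood above both without overlap. Against CD11cloMϕ the log2 fold change was 2.58 (SE 0.17, adjusted p = 1.59e-05). Against CD11chiMϕ it was 1.82 (SE 0.59, adjusted p = 0.121), and without CD11chiMϕ Sham replicate 2, whose level was the highest of that group, 2.98 (adjusted p = 0.0109). It was 1.53 (adjusted p = 0.224) without replicate 1 and 1.44 (adjusted p = 0.0807) without replicate 3. *Stab1* shares bases with *Nt5dc2* on the opposite strand, and the library kit does not keep strand, so reads in the shared stretch cannot be told apart.

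*Timd4*, which encodes a receptor known as a marker of long-lived resident macrophages in several tissues, ran the other way. KRM from Sham kidneys had 1, 0, 3 and 7 counts in the 4 libraries, 11 counts of 46230720 in all, or 0.238 CPM before TMM scaling (exact Poisson 95% interval 0.119 to 0.426, counting error only). CD11chiMϕ Sham libraries held 3.82, 8.32 and 11.6 CPM. The level in CD11cloMϕ from Sham kidneys was 24.5, 15 and 93.4 CPM. The 3 populations did not overlap, with CD11cloMϕ highest, and the CD11cloMϕ library at 93.4 CPM is the one rich in tubule markers. KRM was lower than CD11cloMϕ by a log2 fold change of -7.44 (SE 0.92, adjusted p = 0.000419), and lower than CD11chiMϕ by -5.00 (SE 0.93, adjusted p = 0.0272). Without CD11cloMϕ Sham replicate 3 the first value was -6.37 (adjusted p = 0.000145). Without KRM Sham replicate 4, which held 7 of the 11 counts, they were -8.55 (adjusted p = 0.000958) and -6.19 (adjusted p = 0.0323). The second call was lost with the replicate number as a block (-6.29, adjusted p = 0.0567; 89 genes in all passed against 635 without the block), and without CD11chiMϕ Sham replicate 1 or any of KRM Sham replicates 1 to 3 (adjusted p = 0.063 to 0.0925), with the same direction each time. CD11chiMϕ against CD11cloMϕ gave -2.38 (SE 0.80, adjusted p = 0.2), and -2.13 with an adjusted p of 0.0489 in the fit with the replicate block, where 595 genes in all passed against 184 without it. Without CD11cloMϕ Sham replicate 3, the library at 93.4 CPM, it was -1.25 (adjusted p = 0.34).

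Markers of other macrophages were also lowest in KRM, but did not follow *Timd4* library by library. A list of 12 genes of LYVE1 and serous cavity macrophages summed to 302 to 415 CPM in KRM from Sham kidneys, to 1075 to 2630 CPM in CD11chiMϕ and to 1380, 2074 and 4010 CPM in CD11cloMϕ replicates 1 to 3, highest in the library at 93.4 CPM of *Timd4*. In CD11chiMϕ Sham replicates 1 to 3 the order was the reverse of that of *Timd4*, at 2630, 1370 and 1075 CPM. Of 11 tested, 10 were lower and 1 higher in KRM than in CD11cloMϕ (41.8% of all genes called), and 7 were lower in KRM than in CD11chiMϕ (5.12% of all genes called). In RAS kidneys the list summed to 431 to 570 CPM in KRM, 1728 to 3152 CPM in CD11chiMϕ and 1022 to 3988 CPM in CD11cloMϕ, where the library highest in *Timd4*, replicate 2, was at 1896 CPM and replicates 3 and 4 at 3988 and 3732 CPM. The part of such cells in the level of *Timd4* was not tested.

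*Cd36* was at 472 to 603 CPM in KRM from Sham kidneys. Its levels were 301, 542 and 274 CPM in CD11chiMϕ and 122, 109 and 349 CPM in CD11cloMϕ from Sham kidneys. KRM was above all CD11cloMϕ libraries and overlapped CD11chiMϕ. The log2 fold change against CD11cloMϕ was 1.53 (SE 0.37, adjusted p = 0.0108), and 2.19 (adjusted p = 9.46e-06) without CD11cloMϕ Sham replicate 3, the library at 349 CPM.

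None of the bridging proteins was called between populations of Sham kidneys. *Gas6* was at 86.3, 68.5, 102 and 57.8 CPM in KRM, at 24.2, 44.0 and 380 CPM in CD11chiMϕ, and at 31.4, 42.2 and 149 CPM in CD11cloMϕ. The libraries at 380 and 149 CPM were the CD11chiMϕ and CD11cloMϕ replicates 3 that also held most tubule markers, and the part of tubule RNA in these levels was not tested. The log2 difference of *Gas6* in KRM against CD11cloMϕ was 0.12 (adjusted p = 0.854), and 1.05 (adjusted p = 0.00808) without that CD11cloMϕ replicate. Against CD11chiMϕ it was -0.98 (adjusted p = 0.482), and it turned to 1.21 (adjusted p = 0.0373) without that CD11chiMϕ replicate. *Pros1*, which activates Mertk and Tyro3, lay between 80.1 and 124 CPM in 9 of the 10 Sham libraries and at 25.1 CPM in CD11chiMϕ replicate 3. *Mfge8* lay between 20.8 and 47.3 CPM in all 10.

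**Figure D2:**
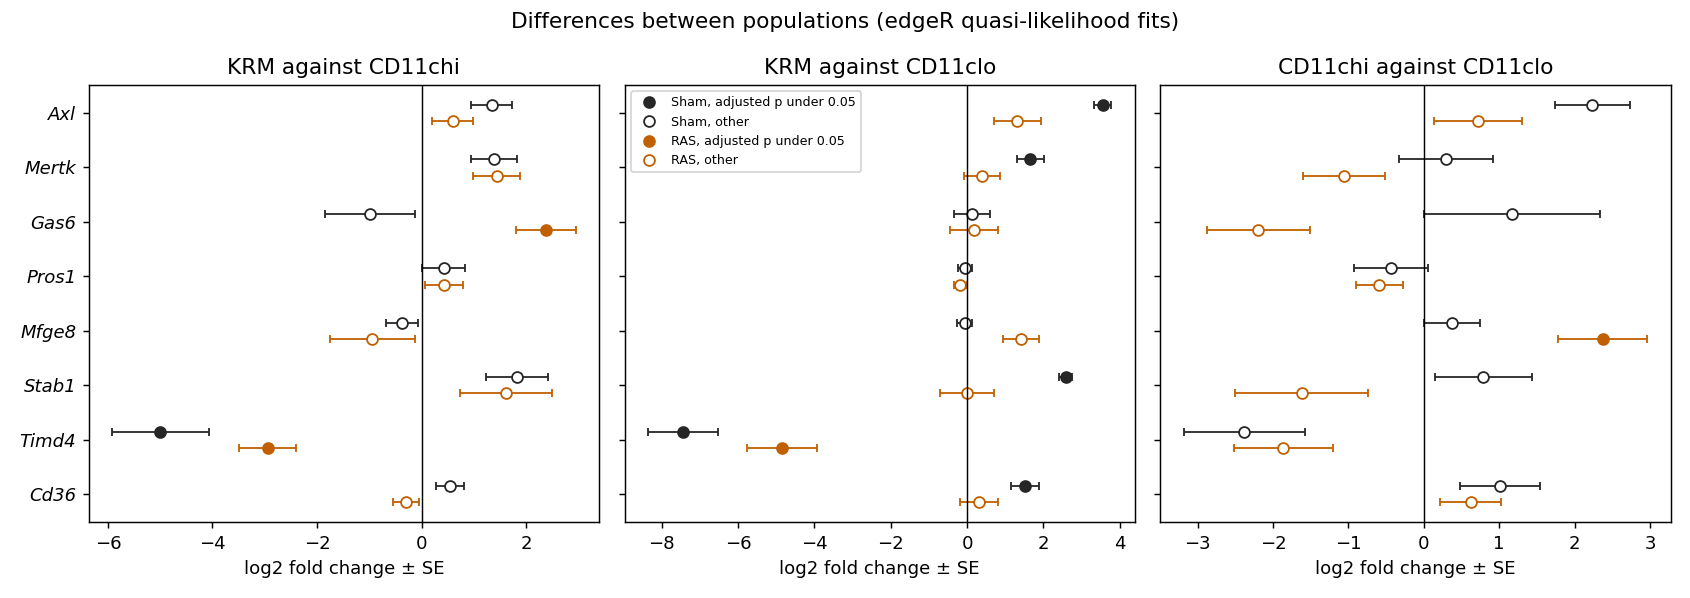
Log2 fold changes (horizontal axes, with standard errors) of the 8 genes between populations, from Sham (black) and RAS kidneys (orange); filled points passed an adjusted p of 0.05. *Axl*, *Mertk*, *Stab1* and *Cd36* lie to the right and *Timd4* far to the left for KRM against CD11cloMϕ in Sham kidneys.

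In counts over the whole list, KRM against CD11cloMϕ in Sham kidneys called 5 of the 8 genes, 4 higher and 1 lower, where 41.8% of all genes tested were called. The median log2 fold change of the 8 was 0.83 against -0.04 over all genes. KRM against CD11chiMϕ in Sham kidneys called 1 of 8 (5.12% of all genes), and CD11chiMϕ against CD11cloMϕ called 0 of 8 (1.52% of all genes). In the latter 2 of the 8, and 2144 of 12105 genes in all, had an unadjusted p under 0.05. DESeq2 called *Axl* and *Timd4* there, among 1045 of 13865 genes. Comparisons of KRM with CD11chiMϕ and with CD11cloMϕ share the KRM libraries and are not independent of each other. Whether the 8 stand apart from that background was not tested.

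Set per kb of annotated exon, *Axl* had the highest group mean of the 8 in all 6 groups but CD11cloMϕ from Sham kidneys, where *Cd36* was higher. In KRM from Sham kidneys *Axl* was at 341 ± 16.6 CPM per kb, *Cd36* at 153 ± 15.2 and *Stab1* at 51.2 ± 5.79 (SD, n = 4). *Gas6* stood at 30.8 ± 7.59, *Pros1* at 23.5 ± 1.70, *Mertk* at 17.2 ± 3.40 and *Mfge8* at 5.33 ± 0.93 CPM per kb in the same libraries, with *Timd4* lowest at 0.113. *Gas6* and *Pros1*, the 2 ligands of the receptor kinases, had a ratio per length of 0.96 to 1.69 over these 4 libraries.

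**Figure D3:**
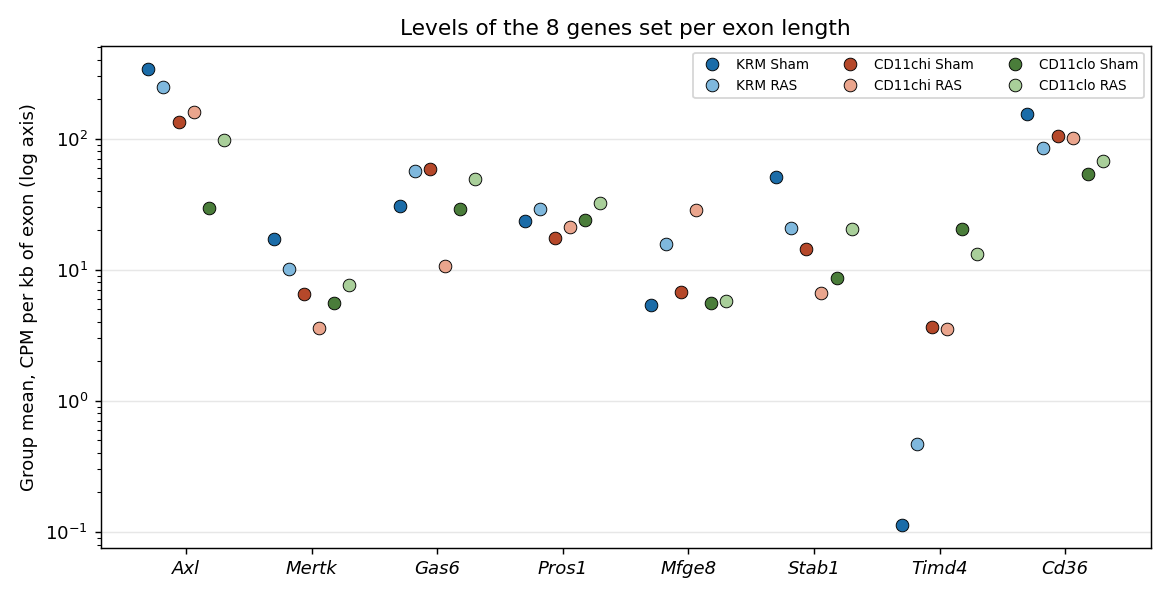
Group means of the 8 genes in CPM per kb of exon (vertical axis, log scale), with a colour for each of the 6 groups. The means in KRM from Sham kidneys span from 0.113 for *Timd4* to 341 for *Axl*.

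The promoters of the genes with the highest and the lowest level in KRM, *Axl* and *Timd4*, are shown to let their sequence be read beside these opposite patterns. Both are the 120 bases before the RefSeq start on the gene's own strand (GRCm38.p6). Capitals mark a GC box (GGGCGG) in *Axl* and a composite ETS-IRF element (GGAA and GAAA with 2 bases between) in *Timd4*, an arrangement that PU.1 and IRF factors can bind together in myeloid cells.
Axl, chr7:25788734-25788853, minus strand: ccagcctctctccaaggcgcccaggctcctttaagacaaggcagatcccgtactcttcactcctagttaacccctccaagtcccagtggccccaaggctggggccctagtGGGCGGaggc
Timd4, chr11:46810679-46810798, plus strand: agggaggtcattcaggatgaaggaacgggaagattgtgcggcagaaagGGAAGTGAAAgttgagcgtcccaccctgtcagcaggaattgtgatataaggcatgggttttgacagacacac
All 8 genes had a promoter window in the RefSeq table. Within 250 bases before the start, searched on both strands, the composite element was in *Timd4* alone among the 8, 72 bases upstream, and in 2.3% of 32851 windows. A GC box was in *Axl*, *Mertk*, *Gas6*, *Pros1*, *Mfge8* and *Cd36* but not in *Stab1* or *Timd4*, and in 32.7% of all windows. The motif GAGGAAGT of PU.1 was in none of the 8 and in 2.44% of all windows, and TATAAA, read on the gene's strand, also in none of the 8 and in 7.59%. A match describes letters in a window and shows no binding.

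In KRM, all 3 RAS libraries lay below all 4 Sham libraries in *Axl*, *Mertk*, *Stab1* and *Cd36*, and 2 of the 3 lay above them in *Gas6*, *Pros1* and *Mfge8*. *Stab1* was at 364, 115 and 162 CPM in RAS replicates 1 to 3, below all 4 Sham libraries. *Cd36* was at 391, 223 and 296 CPM, also below all Sham libraries. *Axl* and *Mertk* did not overlap between Sham and RAS either, at 1546, 960.3 and 1206 CPM for *Axl* and at 51.2, 35.4 and 44.6 CPM for *Mertk* in RAS.

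The bridging proteins exceeded the Sham range in RAS replicates 2 and 3 but not in replicate 1. *Gas6* was at 85.5, 180.3 and 167 CPM, and replicate 1 was within the Sham range. *Mfge8* was at 21.7, 110.2 and 91.0 CPM, again with replicate 1 inside the Sham range of 20.8 to 31.1 CPM. *Pros1* was at 100.2, 116 and 140 CPM against 87.3 to 104 CPM in Sham.

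Of the 7 genes that could be tested in KRM, *Cd36* alone passed, with a log2 fold change of -0.83 (SE 0.21, adjusted p = 0.048), where 9.70% of all genes were called. *Timd4* was too low to test, at 1, 0, 3 and 7 counts in Sham and 9, 15 and 8 counts in RAS. The other 6 each had an unadjusted p under 0.05, as did 4371 of 12852 genes in all, and did not pass after adjustment. The median of the 7 was -0.44 against 0.02 over all genes. *Stab1* was at -1.27 (SE 0.38, adjusted p = 0.0673), *Mertk* at -0.74 (SE 0.20, adjusted p = 0.0566) and *Axl* at -0.44 (SE 0.19, adjusted p = 0.139) on the log2 scale. *Mfge8* was at 1.59 (SE 0.47, adjusted p = 0.0665), *Gas6* at 0.90 (SE 0.29, adjusted p = 0.0789) and *Pros1* at 0.33 (SE 0.14, adjusted p = 0.145), the last at 0.17 (adjusted p = 0.51) without RAS replicate 3.

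**Figure D4:**
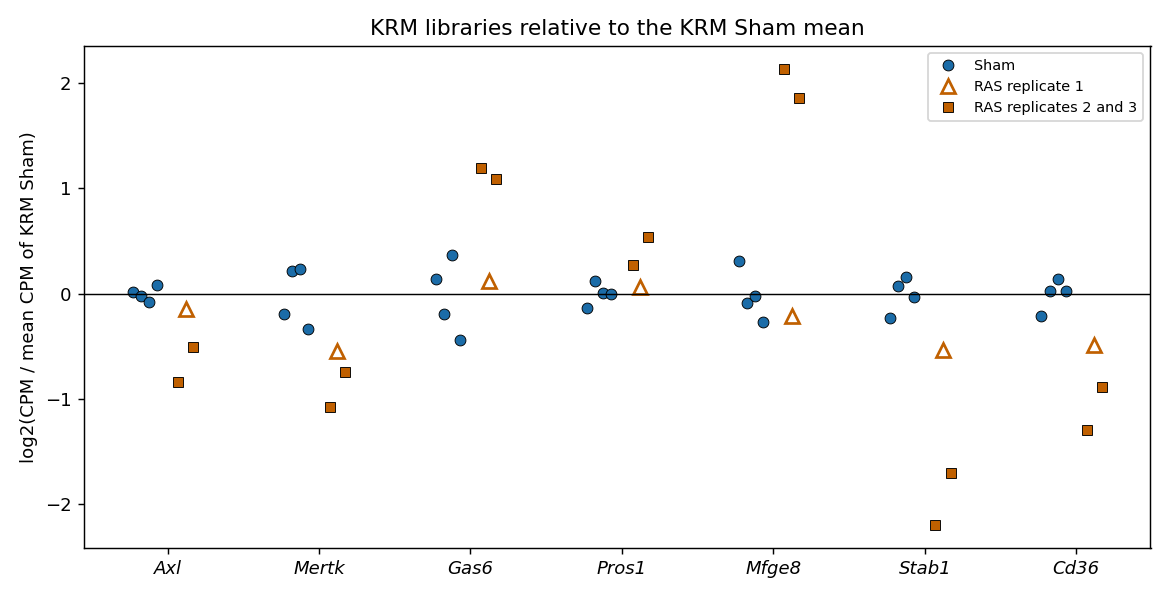
Each KRM library as log2 of its CPM over the KRM Sham mean (vertical axis) for the 7 tested genes; circles are Sham, the open triangle is RAS replicate 1 and squares are RAS replicates 2 and 3. The triangle lies between the circles and the squares, or among the circles, for each gene.

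These values turned on KRM RAS replicate 1, the library whose columns differ between the tables. Without it all 7 tested genes passed, as did 7070 genes in all. *Stab1* was then at -1.96 (adjusted p = 0.00023), *Cd36* at -1.11 (adjusted p = 0.0014), *Mertk* at -0.93 (adjusted p = 0.00793) and *Axl* at -0.69 (adjusted p = 0.00493). *Mfge8* was at 1.98 (adjusted p = 0.000101), *Gas6* at 1.11 (adjusted p = 0.00338) and *Pros1* at 0.39 (adjusted p = 0.0361). Without KRM RAS replicate 2 or 3, 0 of the 7 passed, and 28 and 32 genes in all did. Leaving out any of the 4 KRM Sham libraries also ended the call of *Cd36* (adjusted p = 0.0679 to 0.129). So did the replicate block, where 42 genes in all passed.

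Markers of other cells also differed between these libraries. In KRM RAS replicates 2 and 3 the 12 fibroblast and pericyte markers summed to 703 and 740 CPM and the 12 endothelial markers to 338 and 299 CPM, beside 4962 and 3764 CPM for the distal nephron. In KRM RAS replicate 1 these sums were 47.5, 76.8 and 133 CPM, and in KRM Sham they were 21.8 to 41.9, 51.3 to 71.0 and 12.9 to 230 CPM. Macrophage identity markers summed to 17644 and 19946 CPM in replicates 2 and 3 and to 23008 CPM or more in KRM Sham. T and NK cell markers ran otherwise: they summed to 312 CPM in KRM RAS replicate 1, to 41.1 and 36.4 CPM in replicates 2 and 3 and to 2.17 to 3.09 CPM in KRM Sham, and all 8 were called higher in RAS. The 6 B and plasma cell markers found summed to 400 to 511 CPM in KRM Sham and 415 CPM in KRM RAS replicate 1. In KRM RAS replicates 2 and 3 they summed to 78.5 and 77.8 CPM. The part of other cells' RNA in the levels of *Gas6*, *Mfge8* and the receptors was not tested.

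**Figure D5:**
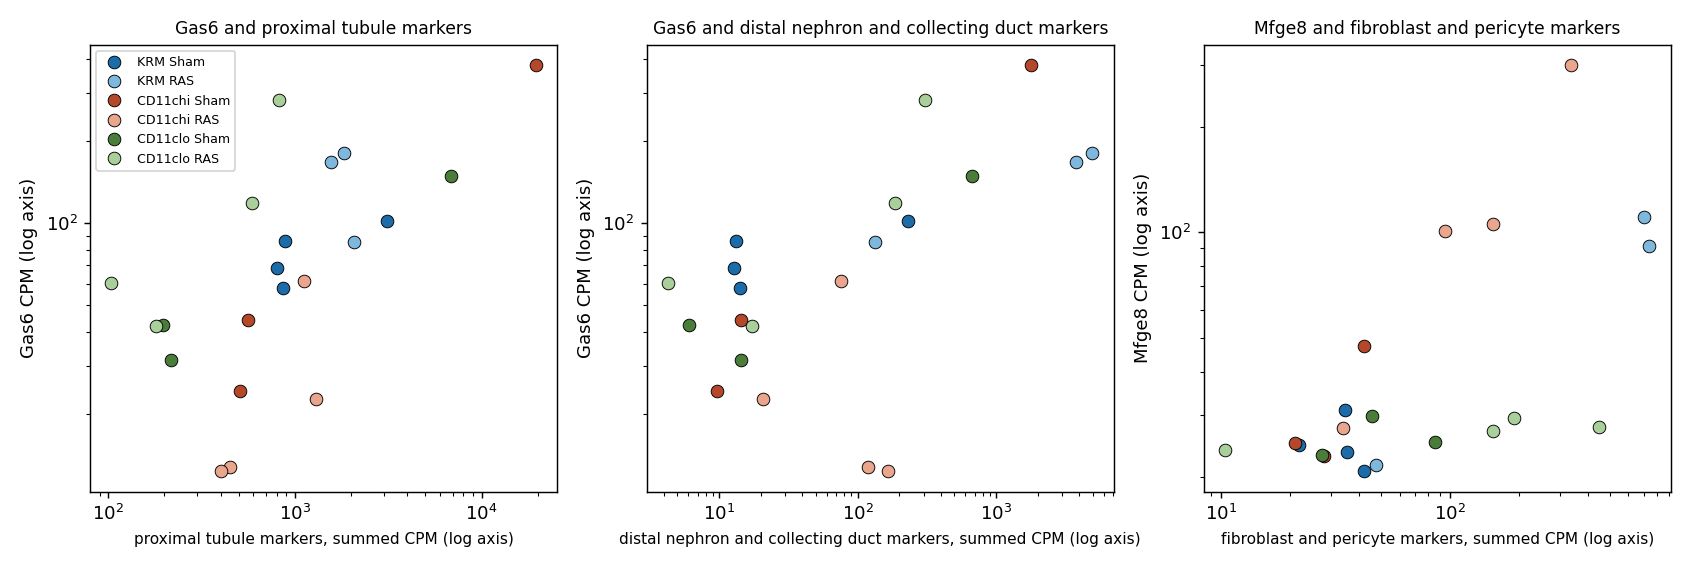
*Gas6* or *Mfge8* (vertical axes, CPM, log scale) against the summed CPM of proximal tubule, distal nephron and fibroblast markers (horizontal axes, log scale); each point is a library, coloured by group. CD11chiMϕ Sham replicate 3 is at the top right of the proximal tubule panel with 380 CPM of *Gas6*, and KRM RAS replicates 2 and 3 are farthest right in the fibroblast panel, at 703 and 740 CPM.

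In RAS kidneys *Timd4* was again lowest in KRM, with 0.90, 1.39 and 0.78 CPM, against 5.70, 4.05, 9.38 and 11.7 CPM in CD11chiMϕ and 12.8, 75.4, 12.7 and 13.4 CPM in CD11cloMϕ. The 3 populations again did not overlap. KRM was lower than CD11chiMϕ by -2.95 (SE 0.55, adjusted p = 0.0283) and lower than CD11cloMϕ by -4.84 (SE 0.92, adjusted p = 0.0309) on the log2 scale. Both calls were lost without KRM RAS replicate 2 or 3 (adjusted p = 0.128 to 0.141). The first was also lost with the replicate block, and without CD11chiMϕ RAS replicate 3 or 4 (adjusted p = 0.094 and 0.0894). The second was also lost without CD11cloMϕ RAS replicate 4 (adjusted p = 0.0729). Without CD11cloMϕ RAS replicate 2, the library at 75.4 CPM, the second was -3.66 (adjusted p = 0.0403).

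*Gas6* was higher in KRM than in CD11chiMϕ of RAS kidneys. CD11chiMϕ RAS libraries held 61.2, 22.7, 12.8 and 12.3 CPM, all below the lowest KRM RAS library at 85.5 CPM. The log2 fold change was 2.38 (SE 0.57, adjusted p = 0.0427). It kept its direction but lost the call without KRM RAS replicate 2 or 3 or CD11chiMϕ RAS replicate 2, 3 or 4 (adjusted p = 0.0842 to 0.162). The replicate block also ended the call, with 101 genes in all passing against 1221 without the block. The value was 3.14 (adjusted p = 0.00698) without CD11chiMϕ RAS replicate 1, the highest of its group. KRM RAS replicates 2 and 3 are those rich in distal nephron markers. The CD11chiMϕ libraries low in *Gas6*, replicates 2 to 4, were also low in the genes of the sorting markers F4/80 and CD64, with *Emr1* at 186, 122 and 115 CPM against 772 CPM in replicate 1 and *Fcgr1* at 43.1, 19.6 and 11.97 CPM against 118 CPM. Their dendritic cell markers, 10 genes, summed to 2030, 5068 and 5505 CPM against 1225 CPM, and the part of this in *Gas6* was not tested. *Mertk* in the same comparison gave 1.44 (SE 0.45, adjusted p = 0.0773), and 1.78 with an adjusted p of 0.0398 without CD11chiMϕ RAS replicate 1. It was 1.19 (adjusted p = 0.152) without CD11chiMϕ RAS replicate 3. *Stab1* gave 1.62 (adjusted p = 0.257), and 2.78 (adjusted p = 0.04995) without CD11chiMϕ RAS replicate 1.

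*Mfge8* was higher in CD11chiMϕ than in CD11cloMϕ of RAS kidneys. CD11chiMϕ RAS libraries held 27.7, 300.3, 101 and 106 CPM. CD11cloMϕ RAS libraries held 23.9, 27.9, 27.2 and 29.5 CPM, so replicate 1 of CD11chiMϕ lay inside their range and the other 3 above it. CD11chiMϕ was higher by 2.37 (SE 0.59, adjusted p = 0.0403). The call was lost with the replicate block and without any of the 8 libraries except CD11chiMϕ RAS replicate 1, the highest adjusted p being 0.107. The value was 1.55 without CD11chiMϕ RAS replicate 2, the library at 300.3 CPM. KRM RAS replicates 2 and 3, at 110.2 and 91.0 CPM, lay near CD11chiMϕ RAS replicates 3 and 4, and KRM against CD11chiMϕ did not pass (adjusted p = 0.471). The dendritic cell markers given above for CD11chiMϕ RAS summed to 163 to 484 CPM in CD11cloMϕ RAS. KRM against CD11cloMϕ gave 1.43 for *Mfge8* (SE 0.47, adjusted p = 0.0876), and 1.83 with an adjusted p of 0.00647 without KRM RAS replicate 1 but 1.04 (adjusted p = 0.273) without replicate 2. *Gas6* ran the opposite way between CD11chiMϕ and CD11cloMϕ, at -2.19 (SE 0.69, adjusted p = 0.0788). Without CD11chiMϕ RAS replicate 1 it was -2.92 (adjusted p = 0.0213), and without CD11cloMϕ RAS replicate 3, which held 283 CPM of *Gas6* against 41.8 to 118 CPM in the others, -1.41 (adjusted p = 0.167). *Timd4* was at -1.86 (SE 0.66, adjusted p = 0.107) in that comparison, and at -0.71 (adjusted p = 0.342) without CD11cloMϕ RAS replicate 2, the library at 75.4 CPM.

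In *Axl*, *Mertk*, *Stab1*, *Gas6* and *Cd36* a single library widened CD11cloMϕ of RAS kidneys. Replicate 3 held 1173 CPM of *Axl* against 236, 183 and 381 CPM in replicates 1, 2 and 4. It held 511 CPM of *Stab1* against 111, 69.4 and 155 CPM, and 67.9 CPM of *Mertk* against 15, 27.7 and 21.4 CPM. Its *Axl* level was within the KRM RAS range, and its *Stab1* and *Mertk* levels were above that range. Other genes set the same library apart from its group. The macrophage genes *C1qa*, *Emr1* and *Cx3cr1* were at 1936, 1825 and 895 CPM against 311 to 450, 697 to 890 and 303 to 489 CPM in the other 3, and its 10 monocyte markers summed to 3495 CPM against 7482 to 10051 CPM. Its distal nephron markers summed to 308 CPM, the highest of the group. The part of other cells in its levels was not tested. *Axl* in KRM against CD11cloMϕ of RAS kidneys was at 1.32 (SE 0.62, adjusted p = 0.181). Without CD11cloMϕ RAS replicate 3 it was called (2.21, adjusted p = 0.0146), and *Timd4* stayed called. All genes called went from 1208 of 13179 to 2111 of 13023.

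As counts, KRM against CD11chiMϕ in RAS kidneys called 2 of the 8 genes, *Gas6* and *Timd4* (9.23% of all genes were called), KRM against CD11cloMϕ called 1 of 8 (9.17%) and CD11chiMϕ against CD11cloMϕ called 1 of 8 (8.27%). The medians of the 8 were 0.51, 0.25 and -0.82 on the log2 scale, against 0.03, 0.06 and 0.01 over all genes.

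In CD11chiMϕ and CD11cloMϕ RAS gave no call. In CD11chiMϕ 0 of the 8 and 0% of 12739 genes passed edgeR's quasi-likelihood test. Of the 8, 2 had an unadjusted p under 0.05. These were *Gas6*, at -2.51 (SE 1.00, adjusted p = 0.508), and *Mfge8*, at 2.06 (SE 0.75, adjusted p = 0.508). Without CD11chiMϕ Sham replicate 3, the library with 380 CPM, *Gas6* was at -0.33 (adjusted p = 0.861), and without CD11chiMϕ RAS replicate 2 *Mfge8* was at 1.20 (adjusted p = 0.589). Over all genes 1247 had an unadjusted p under 0.05, and DESeq2 called 196, none of the 8. In CD11cloMϕ 0 of the 8 and 0% of 12301 genes passed; 1102 genes had an unadjusted p under 0.05 and DESeq2 called 102, again none of the 8. *Axl*, at 1.74 (SE 0.67, adjusted p = 0.553), had the only unadjusted p under 0.05, and without RAS replicate 3, its highest RAS library, it was at 0.86 (adjusted p = 0.774).

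Whether RAS moved the genes differently in KRM than in the other populations was tested by the interaction. Against CD11chiMϕ 0 of the 8 and 0% of 14137 genes passed (2996 genes with an unadjusted p under 0.05; 1262 genes by DESeq2, *Gas6* among them). *Gas6* differed by 3.31 (SE 1.11, adjusted p = 0.125), by 1.16 (adjusted p = 0.677) without CD11chiMϕ Sham replicate 3, and *Cd36* by -0.82 (SE 0.37, adjusted p = 0.229). Against CD11cloMϕ 0 of the 8 passed, with 0.245% of all genes called (3289 genes with an unadjusted p under 0.05). DESeq2 called *Axl* and *Stab1*, among 1402 of 14461 genes in all. *Stab1* differed by -2.59 (SE 0.82, adjusted p = 0.105), *Axl* by -2.26 (SE 0.73, adjusted p = 0.107) and *Mfge8* by 1.48 (SE 0.53, adjusted p = 0.13). Without CD11cloMϕ RAS replicate 3 *Stab1* gave -1.70 (adjusted p = 0.128) and *Axl* -1.40 (adjusted p = 0.118). Without KRM RAS replicate 1, *Stab1* gave -3.27 (adjusted p = 0.0227) and *Mfge8* 1.89 (adjusted p = 0.00114). So 2 of the 8 passed, as did 2360 of 14638 genes in all. Between CD11chiMϕ and CD11cloMϕ 0 of the 8 and 0% of 13540 genes passed (900 genes with an unadjusted p under 0.05; 15 by DESeq2), with *Gas6* at -3.22 (SE 1.37) and *Mfge8* at 2.09 (SE 0.79), both at an adjusted p of 0.735. *Gas6* was at -1.13 (adjusted p = 0.744) without CD11chiMϕ Sham replicate 3, and *Mfge8* at 1.14 (adjusted p = 0.77) without CD11chiMϕ RAS replicate 2.

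Around the 8 genes, 78 others of the uptake pathway were listed in 7 groups, of which 77 were found. In KRM against CD11cloMϕ of Sham kidneys 15 were higher and 30 lower of 67 tested, where 41.8% of all genes were called. Among 15 tested uptake receptors 4 were higher and 8 lower, led by *Itgb5*, an integrin subunit that pairs with αv (2.57, adjusted p = 5.96e-06), and by the scavenger receptor *Marco* (-7.23, adjusted p = 0.00106) and the integrin subunit *Itgb3* (-6.56, adjusted p = 0.000108). Of 8 bridges and ligands 1 was higher and 4 lower, with *Thbs1*, thrombospondin-1, at -6.21 (adjusted p = 8.88e-06). *Siglece*, an inhibitory receptor of the self-recognition group (2.99, adjusted p = 6.19e-05), and *P2ry6*, a receptor for nucleotides released by dying cells (2.13, adjusted p = 1.57e-05), were among the higher genes. Each of these 6 genes was called in all 7 fits that lacked 1 library and with the replicate block, with *Marco* at -5.92 without CD11cloMϕ Sham replicate 3. KRM against CD11chiMϕ called 1 higher and 5 lower of 67, where 5.12% of all genes were called, with *Dnase2a*, the lysosomal nuclease, at 0.87 (adjusted p = 0.0491), *Ptk2* at -3.86 (adjusted p = 0.0251), *Anxa1* at -3.63 (adjusted p = 0.00435) and *Thbs1* at -3.12 (adjusted p = 0.0283). With the replicate block 0 were higher and 2 lower, *Ptk2* (adjusted p = 0.0447) and *Anxa1* (adjusted p = 0.0416), while *Dnase2a* and *Thbs1* lost the call (adjusted p = 0.162 and 0.145). *Anxa1* was called in all 7 fits that lacked 1 library, *Ptk2* and *Thbs1* in 3 and *Dnase2a* in 2, with *Thbs1* at -1.93 without CD11chiMϕ Sham replicate 2 and *Ptk2* at -2.91 without replicate 3. CD11chiMϕ against CD11cloMϕ called 1 of 65 (1.52% of all genes), *Rxra*, a nuclear receptor partner, at -1.45 (adjusted p = 0.0322). With the replicate block 5 were called, *Rxra* among them (adjusted p = 0.0265), but without any 1 library other than CD11chiMϕ Sham replicate 3 its call was lost, the highest adjusted p being 0.2, and 0 genes in all were called.

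In RAS kidneys *Itgav*, the αv integrin that lactadherin engages, was higher in KRM than in CD11chiMϕ (1.58, adjusted p = 0.0421) and CD11cloMϕ (0.99, adjusted p = 0.0351), but both calls held in 2 of 7 fits that lacked 1 library and were lost with the replicate block (adjusted p = 0.11 and 0.0684). KRM against CD11cloMϕ called 1 higher and 15 lower of 67 (9.17% of all genes), led downwards by *Thbs1* (-4.44, adjusted p = 0.0448), *Cd300lf*, a lipid-binding receptor (-3.54, adjusted p = 0.0156), and *Itgb3* (-3.51, adjusted p = 0.0347). KRM against CD11chiMϕ called 2 higher and 4 lower of 69 (9.23% of all genes), among the lower *Anxa1* (-2.36, adjusted p = 0.0337), *Cd300lf* (-1.68, adjusted p = 0.0318) and *Lrp1*, a receptor for calreticulin (-1.46, adjusted p = 0.0385). CD11chiMϕ against CD11cloMϕ called 9 lower of 66 (8.27% of all genes), led by *Thbs1* (-5.09, adjusted p = 0.00626), the scavenger receptor *Msr1* (-2.86, adjusted p = 0.0101) and *P2ry2* (-2.33, adjusted p = 0.0261). Without KRM RAS replicate 2 or 3, 0 pathway genes were called in both comparisons of KRM, and 0 genes in all in that with CD11cloMϕ. The comparison with CD11chiMϕ also called 0 without CD11chiMϕ RAS replicate 3 or 4, and that with CD11cloMϕ called 0 higher and 1 lower without CD11cloMϕ RAS replicate 2 and 0 higher and 2 lower without replicate 4. In KRM against CD11cloMϕ *Cd300lf* was called in 4 of 7 fits that lacked 1 library and *Thbs1* and *Itgb3* in 3, and all 3 with the replicate block. In KRM against CD11chiMϕ *Anxa1*, *Cd300lf* and *Lrp1* were each called in 2 of 7, and with the block *Anxa1* alone kept the call (adjusted p = 0.0353; 0.092 for *Cd300lf* and 0.0794 for *Lrp1*). *Thbs1* and *Msr1* in CD11chiMϕ against CD11cloMϕ were called in all 8 fits that lacked 1 library, *P2ry2* in 4, all 3 with the block, and *Msr1* was at -3.49 without CD11chiMϕ RAS replicate 1.

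RAS against Sham in KRM called 8 of the 66 tested pathway genes as higher and 4 as lower, where 9.70% of all genes were called. Without KRM RAS replicate 2 or 3, without KRM Sham replicate 1, 2 or 4, or with the replicate block, 0 pathway genes were called, and without KRM RAS replicate 1, 19 higher and 23 lower of 70. Fibroblast, endothelial and distal nephron markers were high in KRM RAS replicates 2 and 3, as given above, and their part in these values was not tested. *Anxa1*, annexin A1, rose from 14.1 ± 1.12 (SD, n = 4) to 90.7 ± 43.1 CPM (SD, n = 3), a difference of 2.71 on the log2 scale (adjusted p = 0.014). *Bcar1*, an adaptor of engulfment signalling, was at 3.95 (adjusted p = 0.0374) and *Thbs1* at 2.78 (adjusted p = 0.0388), yet 1 RAS library of each, at 4.29 and 20.2 CPM, lay within the Sham range, and *Bcar1* was at 4.75 (adjusted p = 0.0323) without KRM Sham replicate 3. *Siglece* (-1.25, adjusted p = 0.0369), *Pparg*, a lipid-sensing nuclear receptor (-0.83, adjusted p = 0.0413), and *Scarb1*, a lipoprotein receptor (-0.76, adjusted p = 0.0404), fell. In CD11cloMϕ *Anxa1* was at 619 ± 177 CPM in Sham (SD, n = 3) and 494 ± 190 CPM in RAS (SD, n = 4), and the RAS effect in KRM exceeded that in CD11cloMϕ by 3.00 (adjusted p = 0.0458). That call held in 4 of 14 fits that lacked 1 library, the highest adjusted p being 0.143, and was lost with the replicate block (adjusted p = 0.0965). It was the only 1 of 69 pathway genes called in that interaction (0.245% of all genes), and 0 of 73 were called between KRM and CD11chiMϕ (0% of all genes). RAS called 0 of 67 pathway genes in CD11chiMϕ and 0 of 67 in CD11cloMϕ, as it called 0% of all genes in both.

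The transcripts whose log2 CPM ran closest to each gene over the 21 libraries are given as a description; libraries of a group and shared marker content feed every such correlation. *Axl* ran closest to *Pea15a*, *Cxcl16* and *Sfmbt1* (Pearson r 0.973, 0.963 and 0.959), *Stab1* to *Lair1*, *Adam33* and *Cd79b* (0.963, 0.959 and 0.949) and *Mertk* to *Nisch*, *Stab1* and a row whose symbol is written as 8-Sep (0.931, 0.913 and 0.897). *Gas6* ran closest to *Igfbp4*, *Wwp1* and *Sepp1* (0.946, 0.909 and 0.909), *Pros1* to *Vwa5a*, *Hace1* and *4933426M11Rik* (0.944, 0.937 and 0.908), *Cd36* to *Fcgrt*, *Snx5* and *Tlcd2* (0.917, 0.898 and 0.89) and *Mfge8* to *Nudc*, *Psmc3* and *Vdac2* (0.858, 0.845 and 0.844). At r of 0.9 or more there were 61 transcripts for *Axl* and 31 for *Stab1*, and 0 for *Mfge8*. *Timd4* was below the level required for this list.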

How the data were processed

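RNA was sequenced from sorted kidney macrophages in 21 libraries of 6 groups. Cells were isolated within hours, libraries were made with the SMART-Seq v4 Ultra Low Input and Nextera XT kits, which do not keep strand, and reads were paired-end. The authors aligned the reads to the mm10 build with OmicSoft's aligner and an Ensembl gene model and deposited estimated counts per gene. They also deposited a table of normalized log2 values, used here in 1 alternative and to compare columns. Both tables were matched to libraries by column name, and 0 columns were left unmatched.

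Counts were rounded to whole numbers and rows of a symbol were summed. Levels are CPM scaled by TMM over all 21 libraries. Tests were edgeR 4.0.16 quasi-likelihood F tests in R 4.3.3 with TMM factors on the groups compared, after filterByExpr (minimum count 10, minimum total 15). Benjamini-Hochberg adjustment ran over all genes tested, a call was an adjusted p under 0.05, and a standard error was the log2 fold change divided by the square root of F. Fold changes are printed for the 8 genes where the unadjusted p was under 0.05 or, chosen after the values were seen, where leaving out a library gave a call, and for up to 3 called pathway genes per direction and comparison with the largest fold change and a mean log2 CPM of at least 3. Scripts were tested on simulated data. Alternatives were median-of-ratios factors, no filter, DESeq2 1.42.0, a joint fit of the 6 groups, a block for the replicate number, limma 3.58.1 on the log2 table, plain totals for CPM, and each library left out. Leaving out 4 libraries together (replicate 3 of each Sham group and KRM RAS replicate 1) was added after seeing the data, as was reading out the pathway genes with each library left out and with the block.

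Whether replicate numbers pair libraries was checked on 14504 genes by correlating deviations from group means. Between populations of Sham kidneys same-numbered libraries deviated together (lowest correlation 0.201), though libraries of different numbers reached 0.482. Between populations of RAS kidneys the lowest was 0.0565 and between Sham and RAS -0.198. The tests used for calls did not pair libraries, and the replicate block was an alternative in every comparison. Similar patterns were sought among 8893 genes with a mean log2 CPM of at least 3. Exon lengths came from GENCODE on GRCm38 and promoter windows from RefSeq on GRCm38.p6. The 8 genes and the lists were chosen with earlier results of these data known.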

Additional observations from a re-analysis of the deposited data

Results flagged for a closer look

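Groups of 4 libraries, 24 over all genes, were examined. In 4, a library's distance from its nearest neighbour took up more of the group's range than Dixon's 95% critical value allows. Chance gives this in about 1 in 20 groups whose values are normal and independent. The 24 share libraries, so the number of flags cannot be compared with that rate. In CD11chiMϕ RAS replicate 2, *Axl* was lowest at 320.6 CPM, *Pros1* at 34.8 CPM and *Cd36* at 305.9 CPM. The same library had the highest *Mfge8*, at 300.3 CPM, and the highest fibroblast and pericyte sum of its group, at 336 CPM. In CD11cloMϕ RAS replicate 2, *Timd4* was highest at 75.4 CPM, and its fibroblast and pericyte markers summed to 447 CPM. The part of other cells' RNA in these levels was not tested.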

How the results depend on the processing

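Of 549 alternative values of the fold changes that had an unadjusted p under 0.05, 460 kept their direction and their side of the threshold. Another 38 lost the call, 50 gained one and 1 reversed. Most of the 460 had no call in the fits given above. *Mfge8* in CD11chiMϕ against CD11cloMϕ, RAS, lost its call in 9 of 14 alternatives. *Cd36* for RAS in KRM lost it in 8 of 14 and *Gas6* in KRM against CD11chiMϕ, RAS, in 7 of 14. *Timd4* lost it in 5 of 14 in KRM against CD11chiMϕ, Sham, 6 of 14 in RAS and 3 of 13 in KRM against CD11cloMϕ, RAS. The reversed value was *Pros1* in KRM, RAS against Sham, at -0.23 by limma on the log2 table, where the column of KRM RAS replicate 1 differs from the counts. Of the other fold changes, *Gas6* in KRM against CD11chiMϕ, Sham, turned from -0.98 to a call of 1.21 without CD11chiMϕ Sham replicate 3 and of 1.05 without the 4 libraries named below. Mean CPM by plain totals or without 1 library stayed within 1 SD in all 216 cases. Leaving out 1 library cannot move a group mean by 1 SD, so those cases are no check. The 5 genes called in KRM against CD11cloMϕ, Sham, passed under every alternative. DESeq2 called 4 of the 8 in KRM against CD11chiMϕ, Sham (1720 of 13554 genes in all). In RAS it called 3 (*Mertk*, *Gas6* and *Timd4*, with 3068 of 15142 genes). CD11chiMϕ against CD11cloMϕ gave 2 in Sham (1045 of 13865) and 2 in RAS (2037 of 13544), and RAS in KRM gave 6 (4085 of 15146). The interaction of KRM gave 1 with CD11chiMϕ (1262 of 14237) and 2 with CD11cloMϕ (1402 of 14461). In KRM against CD11cloMϕ, RAS (3510 of 15098), DESeq2 gave *Timd4* no adjusted p and its 1 call was *Mfge8*. With 1 fit over all 6 groups the number called was 1 in KRM against CD11chiMϕ, RAS (2138 of 14504 genes in all). It was 1 in CD11chiMϕ against CD11cloMϕ, Sham (818 of 14504), and 0 for RAS in KRM (1138 of 14504).

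With the replicate block 0 were called in KRM against CD11chiMϕ, Sham (89 of 12404 genes in all) or RAS (101 of 13226). CD11chiMϕ against CD11cloMϕ gave 1 in Sham (595 of 12105) and 0 in RAS (1253 of 12305). For RAS in KRM 0 were called, where all genes called went from 1247 to 42. The block changed no other call count of the 8. limma called 1 in KRM against CD11chiMϕ, RAS (571 of 14006 genes in all), and 2 in KRM against CD11cloMϕ, RAS (731). It called 0 in CD11chiMϕ against CD11cloMϕ, RAS (1144), 4 for RAS in KRM (2594) and 1 for the interaction of KRM with CD11cloMϕ (1461). Its fits with KRM RAS use the log2 column of KRM RAS replicate 1, which differs from the counts. *Mfge8* is at 6.71 in that column, beside 6.69 and 6.44 in replicates 2 and 3, though its counts gave 21.7 CPM. Leaving out 4 libraries (replicate 3 of each Sham group and KRM RAS replicate 1) was an alternative chosen after seeing the data. It gave 3 in KRM against CD11chiMϕ, Sham (1493 of 12398 genes in all), and 6 in KRM against CD11cloMϕ, Sham (5792 of 12391), with *Gas6* gained. KRM against CD11cloMϕ, RAS, gave 2 (3239 of 14072) and CD11chiMϕ against CD11cloMϕ, Sham, 3 (1898 of 12119), *Cd36* among them. RAS in KRM gave 7 (7666 of 14007) and the interaction of KRM with CD11cloMϕ 2 (1714 of 14488). The causes were not tested.

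In fits that each lacked 1 library, the number called ran from 0 to 3 in KRM against CD11chiMϕ, Sham, 0 to 4 in RAS, 5 to 6 in KRM against CD11cloMϕ, Sham, 0 to 2 in RAS, 0 to 1 in CD11chiMϕ against CD11cloMϕ, Sham, 0 to 2 in RAS, 0 to 7 for RAS in KRM and 0 to 2 for the interaction of KRM with CD11cloMϕ. All genes called ranged from 26 to 7070 for RAS in KRM in these fits, and moved in the other comparisons too. KRM against CD11chiMϕ gave 155 to 1717 genes in all in Sham and 14 to 2788 in RAS. KRM against CD11cloMϕ gave 4008 to 5940 in Sham and 0 to 3239 in RAS. CD11chiMϕ against CD11cloMϕ gave 0 to 705 in Sham and 256 to 2169 in RAS. The interaction of KRM with CD11cloMϕ gave 0 to 2360. Depth limits *Timd4* in KRM, at 0 to 15 counts per library.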
